A study of Homo sapiens with 12 samples.

Results

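The desmosome genes described here are 10 genes of the 58735 in the deposited table, chosen by gene name: the plakin DSP, the desmosomal cadherins DSG2, DSG3, DSC2 and DSC3, the armadillo proteins JUP, PKP1, PKP2 and PKP3, and the membrane protein PERP. RNA was sequenced in 12 libraries of KYSE180 and KYSE150, established human cell lines from oesophageal squamous cell carcinoma, with 3 libraries in each of 4 groups. KYSE180 was sampled as a native control (genotype WT) and with overexpression of CDCA7, a nuclear protein known to work with the chromatin remodeller HELLS. KYSE150 was sampled as a native control and as a derivative carrying a short hairpin RNA against CDCA7 (shCDCA7). All cells were grown in RPMI-1640 medium with serum and were detached with trypsin before RNA was taken. Both controls are native cells, and the labels name no empty vector and no non-targeting hairpin, so an effect of the construct itself and an effect of CDCA7 cannot be told apart. Each manipulation was made in 1 line. Separate cultures are not stated for the replicates, and p-values then cover only the spread among these libraries, which may be technical.

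Desmosomes are the junctions that tie the keratin filaments of neighbouring epithelial cells together, and stratified squamous epithelia such as the oesophageal lining depend on them for mechanical strength. Desmogleins (DSG) and desmocollins (DSC) are cadherins that bind across the gap between cells. Inside the cell their tails bind plakoglobin (JUP) and the plakophilins (PKP), and these bind desmoplakin (DSP), which holds the keratin filaments. PERP is a tetraspan membrane protein that is a target of p53 and p63 and is needed for stable desmosomes in stratified epithelium. In such epithelia DSG3, DSC3 and PKP1 belong mainly to the squamous form of the junction, whereas DSG2, DSC2 and PKP2 are also found in simple epithelia and heart muscle.

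Values are FPKM, the fragments of a gene per kilobase of its length, scaled to the size of the library. The libraries held between 16.3 M and 19.6 M recovered reads, and every desmosome gene had at least 455 reads in every library, so low depth did not limit any of the 10. CDCA7 itself followed the labels. It had 24.0, 18.2 and 17.4 FPKM in KYSE180 controls against 44.6, 59.1 and 57.9 FPKM in the overexpressing libraries. In KYSE150 it went from 27.4, 25.6 and 25.6 FPKM without the hairpin to 9.24, 10.1 and 8.83 FPKM with it. Replicate 2 of shCDCA7 stood apart from its own group: its correlation across genes with the other shCDCA7 libraries was 0.962 and 0.964, against 0.996 between those, and mitochondrial genes took 11.2% of its reads against 5.2% and 5.73%. In the KYSE150 controls they took between 4.03% and 4.15%, so that this share was higher in all 3 shCDCA7 libraries. Its part in the results was not tested beyond a scaling by library totals without mitochondrial genes. The calls of the desmosome genes in KYSE150 are given with and without replicate 2 of shCDCA7. All 6 squamous markers were present in KYSE180, and their summed level was between 1877 and 3671 FPKM in its controls against 318 to 334 FPKM in the KYSE150 controls. KRT5 lay between 205.6 and 1452 FPKM and TP63 between 23.8 and 124 FPKM over all 12 libraries. KYSE150 controls had far less KRT14 (27.3 to 27.8 FPKM against 274 to 1412) and KRT6A (10.4 to 13.2 FPKM against 270.1 to 657) than KYSE180 controls, and SOX2, at 151 FPKM or more in KYSE180, was at 0.20 FPKM or less in KYSE150. Summed over their lists, 8 fibroblast markers reached between 0.791 and 5.496 FPKM, 7 leukocyte markers between 0.0913 and 1.92 FPKM and 6 endothelial markers between 0.0563 and 1.62 FPKM.

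The cadherin genes of the family lie side by side on chromosome 18 of GRCh38, in the order DSC3, DSC2, DSC1, DSG1, DSG4, DSG3 and DSG2, within 559 kb. DSC3 (ENSG00000134762) spans 30990008 to 31042815 and DSC2 (ENSG00000134755) 31058840 to 31102522, both on the minus strand. DSG3 (ENSG00000134757) spans 31447795 to 31478702 and DSG2 (ENSG00000046604) 31498043 to 31549008, both on the plus strand. The genes between them were close to silent: DSC1 had at most 7 reads in a library, DSG1 at most 6, and DSG4, a desmoglein known from hair, none in any of the 12 libraries. The other members are scattered. DSP (ENSG00000096696) is on chromosome 6 at 7541575 to 7586717 and PERP (ENSG00000112378) on the same chromosome at 138088505 to 138107511. PKP1 (ENSG00000081277) is on chromosome 1 at 201283452 to 201332993, PKP2 (ENSG00000057294) on chromosome 12 at 32790745 to 32896840, PKP3 (ENSG00000184363) on chromosome 11 at 392614 to 404908, and JUP (ENSG00000173801) on chromosome 17 at 41754604 to 41786931. Whether reads were counted by strand was not given in the sources used here. The antisense gene DSG2-AS1 shares 171 exon bases, 2.76% of the exon length of DSG2, and had at most 21 reads in a library against at least 3824 for DSG2. No other annotated gene shared exon bases with a desmosome gene.

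The sequence before the start of 4 members is shown because results turn on these genes: DSG3 and PERP passed the test in shCDCA7, PKP1 differed between the native lines, and DSP passed in neither of these comparisons. RefSeq (GRCh38.p14) promoter windows were found for 8 of the 10 members, PKP2 and PKP3 being those without an entry. Each window holds the 250 bases before the RefSeq start, and only the bases outside the bounds of the gene in GENCODE 29 are printed. Capitals mark matches to the motifs searched for on both strands, other than the GC box GGGCGG. Matches named further on for DSG2, DSC2, DSC3 and JUP lie in windows that are not printed, and PKP1 has none in its printed bases.
DSG3 (chr18:31447491-31447740, + strand): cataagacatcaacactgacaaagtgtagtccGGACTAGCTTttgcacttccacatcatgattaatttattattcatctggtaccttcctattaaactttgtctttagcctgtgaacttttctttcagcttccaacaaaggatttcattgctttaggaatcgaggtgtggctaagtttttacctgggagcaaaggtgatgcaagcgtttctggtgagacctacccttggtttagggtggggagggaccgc
PERP (chr6:138107512-138107669, - strand): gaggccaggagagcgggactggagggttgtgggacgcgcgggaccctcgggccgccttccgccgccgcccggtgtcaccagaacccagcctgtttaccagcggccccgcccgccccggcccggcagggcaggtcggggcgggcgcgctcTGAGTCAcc
DSP (chr6:7541421-7541574, + strand): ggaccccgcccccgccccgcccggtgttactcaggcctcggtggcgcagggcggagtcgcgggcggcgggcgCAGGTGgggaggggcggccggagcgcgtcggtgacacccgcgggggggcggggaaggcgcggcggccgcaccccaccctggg
PKP1 (chr1:201283256-201283451, + strand): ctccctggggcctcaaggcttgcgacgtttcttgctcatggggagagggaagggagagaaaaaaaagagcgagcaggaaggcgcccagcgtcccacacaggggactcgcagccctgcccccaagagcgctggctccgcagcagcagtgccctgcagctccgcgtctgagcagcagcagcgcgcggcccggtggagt

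Over the whole 250-base windows, DSG3 held 4 CpG dinucleotides and a GC content of 42.8%, whereas PERP held 34 and 77.2%, DSP 33 and 78%, and PKP1 17 and 67.6%. The median over all 35116 RefSeq windows was 11 CpG, with quartiles of 3 and 23. The AP-1 motif TGANTCA occurred in PERP alone among the 8 members, at bases -101 to -95 counted back from the RefSeq start, and in 6.57% of all windows. The E-box CAGGTG, the sequence bound by Snail and ZEB repressors, occurred in DSP, DSG2, DSC2 and JUP and in 17.5% of all windows. The p63 decamer occurred in DSG3 (-218 to -209) and DSC3 (-57 to -48) and in 5.57% of all windows. The GC box occurred in 6 of the 8 members and in 42.6% of all windows, and the grainyhead motif AACCNGTT in none of the 8 and in 1.49% of all windows. No match to a motif overlapped a match to another motif. JUP and DSC2 have a pair of windows each, and a match in either was counted. These matches are letters in a window and say nothing about binding.

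In the native controls JUP, which is shared between desmosomes and adherens junctions, had the highest level of the 10 in both lines, and DSC2 the lowest. In the KYSE180 controls the mean levels ran from JUP (175 ± 7.91 FPKM, SD, n = 3) through PERP (145 ± 20.9), PKP1 (114 ± 3.81), DSP (82.0 ± 9.65), DSG2 (74.3 ± 4.56), PKP3 (48.2 ± 12.2), DSG3 (39.5 ± 1.79), DSC3 (22.2 ± 2.32) and PKP2 (4.22 ± 0.601) to DSC2 (3.94 ± 0.899). Neighbours whose replicates overlapped were JUP and PERP, DSP and DSG2, PKP3 and DSG3, and PKP2 and DSC2. In the KYSE150 controls the order was JUP (82.7 ± 3.26 FPKM, SD, n = 3), PKP3 (71.5 ± 2.78), PERP (67.7 ± 0.910), DSP (57.8 ± 1.77), DSG2 (42.6 ± 0.881), PKP2 (33.6 ± 0.830), PKP1 (21.7 ± 1.66), DSG3 (14.7 ± 0.686), DSC3 (12.3 ± 1.05) and DSC2 (2.81 ± 0.0563). No neighbours overlapped there. The orders of the lines thus differed most for the plakophilins, whose family member PKP4 lay between 10.6 and 17.8 FPKM in all 12 libraries.

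**Figure D1:**
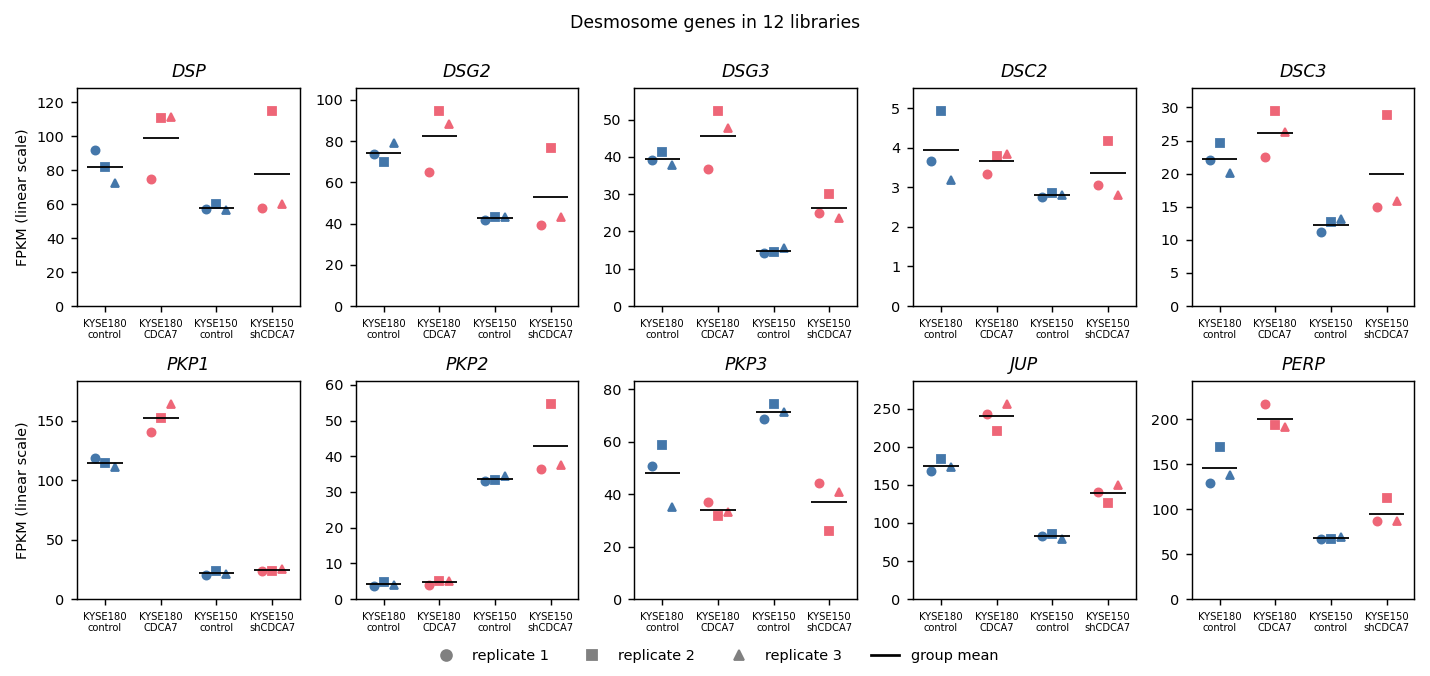
FPKM of each desmosome gene on a linear axis from 0, with 1 panel per gene and its own scale, for the 4 groups of 3 libraries (symbols give the replicate number, bars the group mean). PKP1 is high in KYSE180 and PKP2 in KYSE150, and replicate 2 of shCDCA7 lies above its group for DSP, DSG2 and DSC3.

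PKP1 and PKP2 had opposite levels in the native lines. PKP1, the plakophilin of suprabasal squamous layers, had 118.2, 114 and 111 FPKM in native KYSE180 against 20.2, 23.5 and 21.3 FPKM in native KYSE150. PKP2 had 3.76, 4.90 and 4.0 FPKM in the former against 33.0, 33.3 and 34.6 FPKM in the latter. PKP1 was thus 5.27-fold higher in mean FPKM and PKP2 7.97-fold lower in KYSE180, and the groups were far apart in each case. In a limma fit of all 12 libraries the difference of the controls on the log2(FPKM + 1) scale was 2.35 for PKP1 (SE 0.0955, adjusted p = 3.07e-09) and -2.74 for PKP2 (SE 0.153, adjusted p = 4.03e-08). Of the 10 genes, 8 passed an adjusted p of 0.05 in this comparison, where 58% of the 17088 genes tested did. The others higher in KYSE180 were DSG3 (2.69-fold), PERP (2.15-fold), JUP (2.11-fold), DSC3 (1.81-fold) and DSG2 (1.75-fold). PKP3, found in desmosomes of all layers of stratified epithelia, was 1.48-fold lower in KYSE180 (adjusted p = 0.0300), and lost the call in 6 of 21 alternatives. DSP (difference 0.49, 95% interval -0.04 to 1.02, adjusted p = 0.10) and DSC2 (0.36, 0.03 to 0.69 before adjustment, adjusted p = 0.0619) did not pass, although their groups did not overlap, as those of 71.3% of all tested genes did not. With 1 line of each kind, this comparison describes these lines only, and it shares its control libraries with the comparisons that follow.

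In KYSE150, DSG3, JUP and PERP were higher and PKP3 lower in the shCDCA7 libraries than in the controls. These 4 of 10 genes passed the test, where 19.9% of the 14342 genes tested passed, 10% as higher and 9.86% as lower. The median log2 difference of the 10 was 0.33, against 0.00203 over all tested genes. As these are bulk samples, a change in the share of cells that carry a transcript and a change in RNA per cell cannot be told apart.

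Among the cadherins, DSG3, the desmoglein of the lower squamous layers and the antigen of pemphigus vulgaris, had 14.2, 14.4 and 15.4 FPKM in controls against 24.9, 30.1 and 23.5 FPKM under shCDCA7. All shCDCA7 libraries lay above all controls. The ratio of the means was 1.79, and the log2 difference 0.79 (SE 0.115, adjusted p = 0.00805 by limma). DSC3, its desmocollin partner in squamous layers, had 11.1, 12.7 and 13.1 FPKM in controls against 14.9, 28.9 and 15.9 FPKM under shCDCA7. The groups did not overlap, but replicate 2 was far above the other shCDCA7 libraries, and the difference of 0.60 (SE 0.245) did not pass (adjusted p = 0.133). DSG2 had 41.6, 43.2 and 43.1 FPKM in controls against 39.1, 76.6 and 43.1 FPKM under shCDCA7. Only replicate 2 was above the control range, and the difference of 0.24 (95% interval -0.35 to 0.83, adjusted p = 0.512) changed sign to -0.05 without that library. DSC2 was between 2.75 and 2.86 FPKM in controls and between 2.82 and 4.19 FPKM with shCDCA7, with overlapping groups (0.18, adjusted p = 0.395).

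Among the armadillo proteins, JUP had 82.7, 85.9 and 79.4 FPKM in controls against 141, 126 and 150 FPKM under shCDCA7. The groups were well separated, with a ratio of 1.68 and a log2 difference of 0.74 (SE 0.0972, adjusted p = 0.00640). PKP3 went the other way, from 68.8, 74.4 and 71.4 FPKM in the controls to 44.3, 26.0 and 40.8 FPKM with shCDCA7. It was lower in all 3 shCDCA7 libraries, 1.93-fold in mean FPKM with a log2 difference of -0.97 (SE 0.198, adjusted p = 0.0209). PKP2 had 33.0, 33.3 and 34.6 FPKM in controls against 36.5, 54.6 and 37.4 FPKM under shCDCA7, and PKP1 at 20.2, 23.5 and 21.3 FPKM and at 23.6, 23.8 and 25.4 FPKM. The shCDCA7 libraries were above the controls for both genes, narrowly for PKP1, but neither passed (PKP2 0.32, adjusted p = 0.210, and PKP1 0.16, adjusted p = 0.264).

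PERP had 67.2, 67.2 and 68.8 FPKM in controls against 86.5, 112 and 86.3 FPKM under shCDCA7. Its groups did not overlap either, with a ratio of 1.40 and a log2 difference of 0.47 (SE 0.122, adjusted p = 0.0411). DSP, the keratin anchor, had 56.9, 59.8 and 56.7 FPKM in controls against 57.8, 115 and 60.2 FPKM under shCDCA7. Replicates 1 and 3 were within or just above the control range, so that the difference of 0.35 (95% interval -0.28 to 0.97, adjusted p = 0.378) rested on replicate 2. Without that library the difference was 0.0295. In all, the groups did not overlap for 7 of the 10 genes, 6 higher and 1 lower. Such groups were seen for 47.8% of all tested genes, and for 25.3% as higher.

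**Figure D2:**
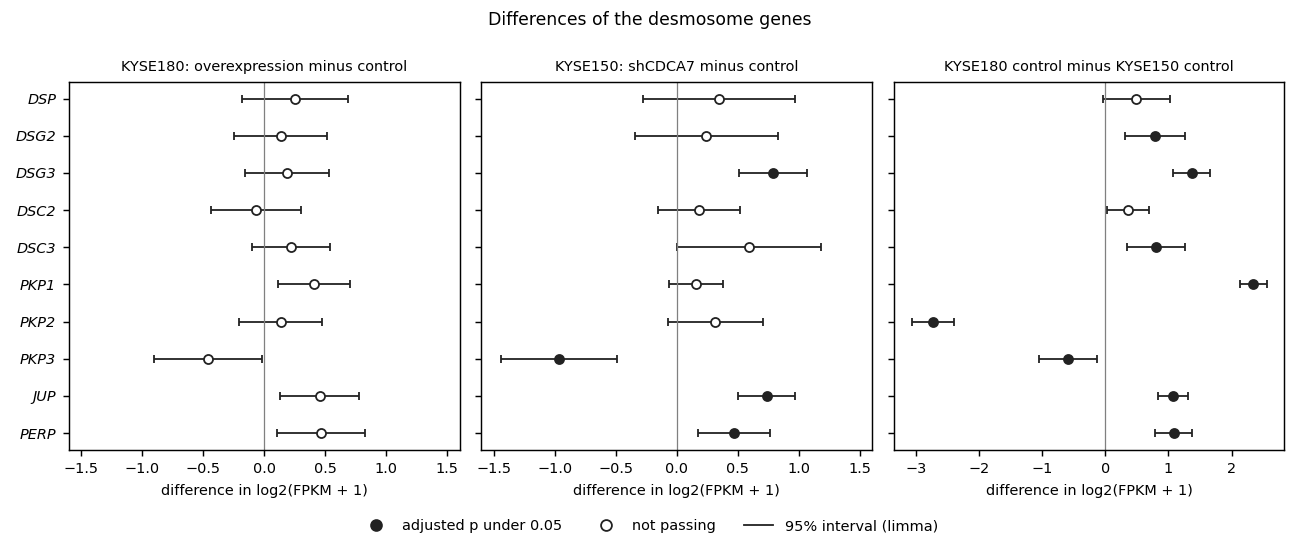
Difference in log2(FPKM + 1) for each desmosome gene in KYSE180 with CDCA7 overexpression, in KYSE150 with shCDCA7 and between the native controls (the axis of the last panel is wider), with unadjusted 95% limma intervals and filled points at an adjusted p under 0.05. In KYSE150, 4 points are filled, with DSG3, JUP and PERP above 0 and PKP3 below. In KYSE180 none is filled.

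The spread of the shCDCA7 libraries went with the base composition of the genes. Replicate 2 deviated from the mean of the other shCDCA7 libraries by between -0.69 (PKP3) and 0.95 (DSP) on the log2 scale. Across the 10 genes this deviation had a Pearson r of -0.827 and a Spearman rho of -0.552 with the GC content of their transcripts, which ran from 38.4% in DSC2 to 68.8% in PKP3; the genes share that library and are not independent. GC-rich PKP3 and JUP were low in it, and GC-poor DSC3, DSG2, PERP and DSC2 high. The order was not strict: DSP deviated most at a GC content of 48.2%, and PKP1, at 56.3%, by only -0.04. Without it, 6 members passed in KYSE150, where 55.9% of all genes then did: DSG3, JUP, PERP and PKP3 remained (adjusted p between 3.97e-05 and 0.000246), and DSC3 (0.31, adjusted p = 0.0106) and PKP2 (0.13, adjusted p = 0.0245) joined them. The PKP3 difference was -0.74 without it, and -0.56 (adjusted p = 0.0454) when the GC trend of each library was removed, an alternative added after the data were seen. Leaving out control 1 or control 2 left JUP as the only call (adjusted p = 0.0490 and 0.0486), and leaving out control 3 left JUP and DSG3. In the same order, the calls over all genes fell from 2854 to 536, 410 and 685. Leaving out shCDCA7 replicate 1 or replicate 3 cost the call of PERP (adjusted p = 0.0600 and 0.0647), which was lost in 9 of 16 alternatives in all. The calls over all genes were then 1758 and 1530. Under scaling by library totals, which shifts the median change of all genes to -0.16, DSG3 and PKP3 kept their calls and JUP (0.48, adjusted p = 0.0581) and PERP (adjusted p = 0.0785) did not. The fibroblast marker sum was between 0.791 and 0.862 FPKM in controls and between 1.28 and 1.68 FPKM with shCDCA7. Most of it was COL1A1, THY1 was at 0 in all 6 KYSE150 libraries and 1 of the 8 markers was tested without passing, and the part of these transcripts in the results was not tested.

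**Figure D3:**
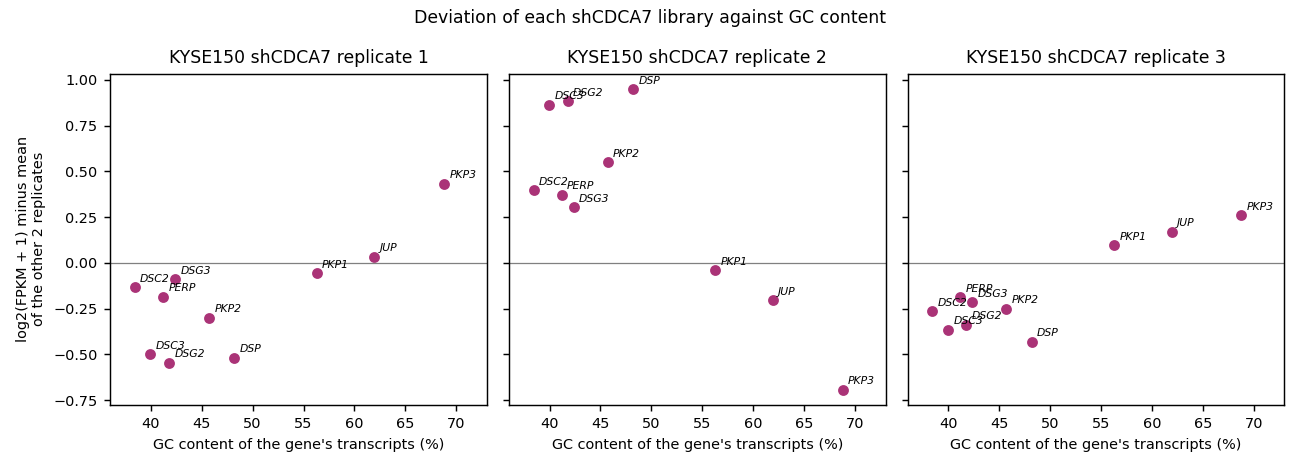
Deviation of each shCDCA7 library from the mean of the other shCDCA7 libraries on the log2(FPKM + 1) scale, against the GC content of each gene's transcripts in percent, with 1 point per desmosome gene. Replicate 2 deviates between -0.69 and 0.95 and falls with GC content (r = -0.827). It is part of the mean that replicates 1 and 3 are set against, so their opposite slopes are not separate trends.

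In KYSE180 no desmosome gene passed the test under CDCA7 overexpression. By limma, 0 of 10 passed where 9.08% of the 15944 genes tested did. At an unadjusted p under 0.05 there were 4, namely PKP1, JUP, PERP and PKP3, where 30% of all genes reached that level. The median log2 difference of the 10 was 0.20, against -0.00491 over all tested genes. Voom on the recovered reads called 0 of 10 as well, and 1 fit of all 12 libraries called PKP1 (adjusted p = 0.0159), JUP (adjusted p = 0.0170) and PERP (adjusted p = 0.0369), where 16.9% of all genes passed.

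JUP had 168, 183 and 173 FPKM in KYSE180 controls against 243, 221 and 256 FPKM under overexpression. PKP1 had 118.2, 114 and 111 FPKM against 140, 152 and 164 FPKM, and PERP at 129, 169 and 138 FPKM and at 217, 193 and 191 FPKM. For these 3 genes every overexpressing library lay above every control, a pattern that 17.7% of all tested genes showed in the same direction. The log2 differences were 0.45 for JUP (SE 0.141, adjusted p = 0.0793), 0.41 for PKP1 (SE 0.128, adjusted p = 0.0827) and 0.47 for PERP (SE 0.156, adjusted p = 0.0929). PERP passed when control 2, its highest control, was left out (adjusted p = 0.0471), while the calls over all genes rose from 1447 to 2097. PKP3 was at 50.8, 59.0 and 35.0 FPKM in controls against 37.1, 31.8 and 33.2 FPKM under overexpression. Control 3 reached into the overexpressing range, and the difference of -0.46 did not pass (adjusted p = 0.151). Without control 3 it was -0.67 and passed (adjusted p = 0.0219), while the calls over all genes rose to 2317. When any other KYSE180 library than control 2 or control 3 was left out, no desmosome gene passed. The calls over all genes were then between 1 and 175.

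The remaining genes had overlapping groups in KYSE180. DSP was at 91.8, 81.7 and 72.5 FPKM in controls against 74.7, 111 and 111 FPKM under overexpression, and DSG2 at 73.8, 70.0 and 79.1 FPKM and at 64.8, 94.6 and 88.4 FPKM. Replicate 1 of the overexpressing libraries was the low one for both, and also for DSG3, which was at 39.2, 41.4 and 37.8 FPKM in controls against 36.6, 52.3 and 47.6 FPKM under overexpression. DSC3 was between 20.03 and 24.7 FPKM and between 22.5 and 29.5 FPKM, DSC2 between 3.19 and 4.94 FPKM and between 3.35 and 3.84 FPKM, and PKP2 between 3.76 and 4.90 FPKM and between 4.06 and 5.08 FPKM. Their adjusted p-values ran from 0.321 for DSC3 to 0.805 for DSC2. Mitochondrial genes took between 4.76% and 6.38% of reads in the KYSE180 controls and between 7.97% and 8.65% with overexpression. Their part in these values was not tested beyond a scaling by library totals without them.

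CDCA7 was raised in KYSE180 and lowered in KYSE150. The fitted log2 difference of manipulated minus control libraries was above 0 in both lines for 8 of the 10 genes and below 0 in both for PKP3, with DSC2 the exception. Of the 13377 genes tested in both lines, 65.4% had the same sign in both, 33.5% above 0 and 31.9% below. Under library totals DSG2 and PKP1 were below 0 in KYSE150. Of these 9 genes, 5 passed the test in neither line. No library enters both comparisons. When the lines were compared as manipulated minus control, 0 of 10 genes passed by limma, where 5.57% of 17088 genes did. An unadjusted p under 0.05 was reached by 1, DSG3, and by 22.2% of all genes. The difference between the lines was -0.00341 for PERP (95% interval -0.42 to 0.42), -0.28 for JUP (-0.62 to 0.05) and 0.25 for PKP1 (-0.05 to 0.54). For DSG3 it was -0.60 (-1.02 to -0.18 before adjustment, adjusted p = 0.0899), and for PKP3 0.50 (-0.14 to 1.15). These intervals include unequal changes of some size. Tested instead along CDCA7, as the change from lower to higher CDCA7 in each line, 5 of the 10 differed between the lines, where 28.4% of all genes did. These were JUP (1.19, SE 0.153, adjusted p = 0.000405), DSG3 (0.97, SE 0.191, adjusted p = 0.00380), PERP (0.94, SE 0.192, adjusted p = 0.00478), PKP1 (0.56, SE 0.135, adjusted p = 0.0104) and PKP3 (-1.43, SE 0.295, adjusted p = 0.00497). Each of these values equals the sum of the manipulated minus control differences of the lines, so a change in KYSE150 alone can be enough to pass.

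The make-up of the plakophilins was described by each gene's share of the summed FPKM of PKP1, PKP2 and PKP3. PKP1 made up 68.8% ± 4.89 (SD, n = 3) in the KYSE180 controls and 79.6% ± 2.0 with overexpression, and 17.1% ± 0.725 in the KYSE150 controls and 23.3% ± 1.04 with shCDCA7. PKP3 made up 28.6% ± 4.88 and 17.9% ± 2.19 in KYSE180, and 56.4% ± 0.305 and 35.6% ± 9.38 in KYSE150. PKP2 made up 2.53% ± 0.310 and 2.47% ± 0.228 in KYSE180, and 26.5% ± 0.987 and 41.1% ± 9.71 in KYSE150. The shares did not overlap between control and manipulated libraries for PKP1 and PKP3 in either line or for PKP2 in KYSE150, which gave an exact two-sided permutation p of 0.1, the smallest that 3 against 3 allows. For PKP2 in KYSE180 the exact p was 0.8. The largest share in KYSE150 thus passed from PKP3 to PKP2 in the group mean, but in shCDCA7 replicate 1 (42.4% against 35.0%) and replicate 3 (39.4% against 36.1%) PKP3 was still the larger, and only in replicate 2 (24.9% against 52.3%) was PKP2.

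DSG3 made up 34.7% ± 2.40 (SD, n = 3) of the summed FPKM of DSG2 and DSG3 in the KYSE180 controls and 35.6% ± 0.549 with overexpression, with overlapping groups (exact permutation p = 0.7). In KYSE150 it made up 25.6% ± 0.714 in the controls and 34.2% ± 5.46 with shCDCA7, above every control in all 3 libraries (exact permutation p = 0.1). DSC3 was the main desmocollin throughout, with 85.1% ± 1.55 and 87.6% ± 0.836 of the summed FPKM of DSC2 and DSC3 in KYSE180, and 81.4% ± 1.09 and 85.1% ± 2.17 in KYSE150. Summed over all 10 genes, the level was between 674 and 753 FPKM in the KYSE180 controls, between 843 and 927 FPKM with overexpression, between 398 and 417 FPKM in the KYSE150 controls and between 471 and 597 FPKM with shCDCA7. In summed FPKM the manipulated libraries were thus above the controls in both lines. As a share of all reads in a library the groups overlapped in both, with 0.432% to 0.461% in the KYSE180 controls against 0.454% to 0.537% with overexpression, and 0.256% to 0.266% in the KYSE150 controls against 0.265% to 0.305% with shCDCA7.

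**Figure D4:**
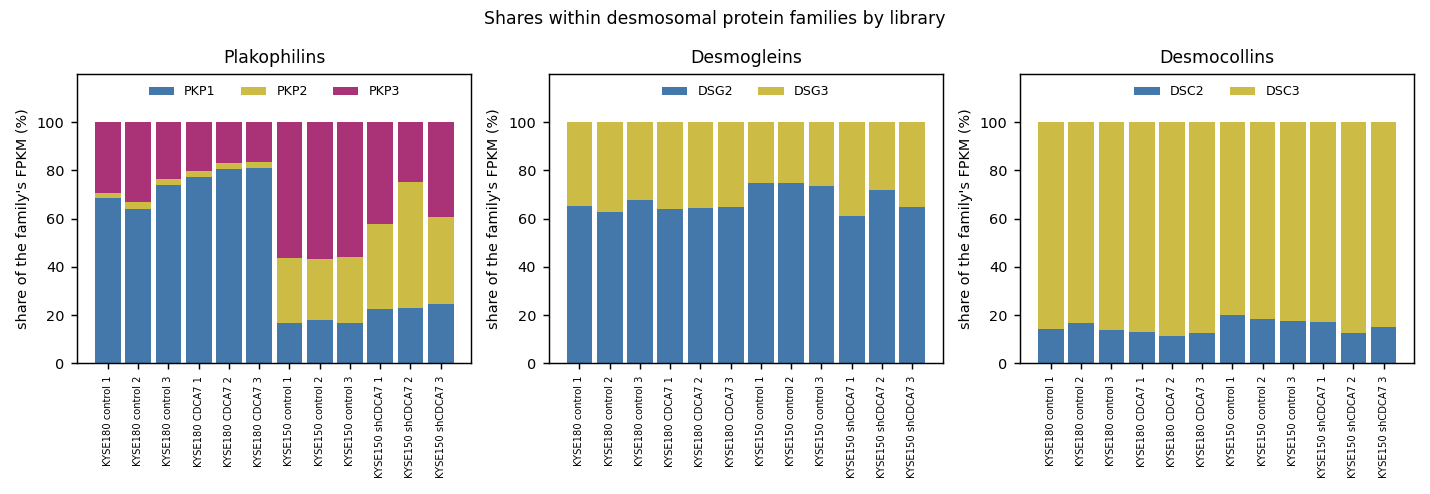
Share in percent of each gene in the summed FPKM of the plakophilins (PKP1, PKP2, PKP3), desmogleins (DSG2, DSG3) and desmocollins (DSC2, DSC3), with 1 stacked bar per library from 0 to 100%. PKP1 fills 64.2% or more of the plakophilin bar in KYSE180 and 24.5% or less in KYSE150, while DSC3 fills 80.2% or more of the desmocollin bar in all 12 libraries.

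The partners of desmosomes were described through lists of related genes. Of the adherens junction genes, 5 of 11 tested were higher in shCDCA7 and none lower, where 10% of all genes were higher and 9.86% lower. The P-cadherin gene CDH3 rose from 60.9, 64.3 and 60.3 FPKM in the controls to 108.5, 110.9 and 106 FPKM (log2 difference 0.80, adjusted p = 0.00304). NECTIN4 (1.93, adjusted p = 0.0112), VCL, which encodes vinculin (0.84, adjusted p = 0.0216), CTNND1, which encodes p120-catenin (0.75, adjusted p = 0.0118), and AFDN (0.67, adjusted p = 0.0208) also rose. CDH1, the E-cadherin gene, was at 58.9, 60.7 and 57.7 FPKM and at 75.2, 127 and 78.5 FPKM without passing (adjusted p = 0.0787). The median over the 11 was 0.67, above the 0.33 of the desmosome genes, and no test of that difference was made. Without shCDCA7 replicate 2 the count was 10 of 11, where 29.5% of all genes then passed as higher, and with a replicate block it was 3. Without any 1 of the controls it was 1, and the calls over all genes fell from 2854 to between 410 and 685. In KYSE180, where 4.65% of all genes passed as higher, 1 of 12 did so, LIMA1 (0.58, adjusted p = 0.0359), and it lost its call in 9 of 16 alternatives.

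Of the keratins that desmosomes anchor, 4 of 9 tested rose in shCDCA7 and none fell, against the 10% and 9.86% of all genes. KRT17 rose from 47.5, 54.0 and 52.1 FPKM to 138, 95.01 and 134 FPKM (1.22, adjusted p = 0.00630), KRT16 by 0.98 (adjusted p = 0.0111), KRT5 by 0.66 (adjusted p = 0.00631) and KRT15 by 0.43 (adjusted p = 0.0408, lost in 10 of 16 alternatives). The count was 1 without control 1 or control 2, and without shCDCA7 replicate 2 it was 5 higher and 2 lower, with 55.9% of all genes then called. Without control 1 or control 2 the calls over all genes fell from 2854 to 536 and 410. KRT16 and KRT17 have near-identical pseudogene copies in the genome, so their counts may be split or shared. In KYSE180 none of 14 passed by limma, where 9.08% of all genes did. An unadjusted p under 0.05 was reached by 6, and by 30% of all genes. Of these 6, 5 had a difference above 0 and KRT4 one below (-2.94, adjusted p = 0.144). The controls there were uneven, with KRT14 at 389, 1412 and 274 FPKM, and without control 2 the count called higher was 5. Of all 15630 genes tested then, 2097 passed, 964 of them as higher. The number of keratins called lower was 1 in 1 of 16 alternatives, an omission of a library. Of the other plakins and linkers, PLEC, which encodes plectin, fell in shCDCA7 from 57.9, 60.4 and 58.0 FPKM to 26.0, 27.3 and 26.9 FPKM (-1.11, adjusted p = 0.00180). It was the only 1 of 5 to pass there, near the share of 19.9% over all genes. None of 5 passed in KYSE180, where 9.08% of all genes did. Of 9 genes linked to desmosome turnover, ADAM10, a protease that sheds cadherins (0.49, adjusted p = 0.0244), and the kinase gene GSK3B (0.46, adjusted p = 0.0318) rose in shCDCA7, again beside 10% of all genes, neither of them without any 1 of the controls. None of the 9 passed in KYSE180, beside 9.08% of all genes. The list did not move upward as a whole in shCDCA7, with a difference above 0 for 5 of the 9. Over the alternatives the calls ran from 0 to 4 as higher and from 0 to 4 as lower. Those over all genes ran from 410 to 7948.

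Among transcription factors known to act on epithelial junction genes, 6 of 11 tested rose in shCDCA7, where 10% of all genes did, and none fell, although 1 was called lower in some alternatives, TMM scaling and library totals among them. GRHL2 had 10.8, 12.2 and 10.8 FPKM in the controls against 7.46, 9.55 and 6.83 FPKM under shCDCA7 without passing (-0.47, adjusted p = 0.0572). The number that rose was 1 without any 1 of the controls, and 3 without a filter on low reads or with a replicate block. The calls over all genes then fell from 2854 to between 410 and 685, to 1554 and to 1001. OVOL1 (1.19, adjusted p = 0.00267), KLF4 (1.11, adjusted p = 0.0272) and GRHL3 (0.76, adjusted p = 0.0168) had the largest rises on the log2 scale, though OVOL1 stayed at 2.7 FPKM or less and GRHL3 at 1.69 FPKM or less. TP63, the master regulator of squamous cells, rose from 23.8, 24.5 and 24.6 FPKM to 34.2, 40.7 and 35.8 FPKM (0.58, adjusted p = 0.0106). In KYSE180, where 4.65% of all genes rose, 3 of 11 did so with CDCA7: TWIST1 (1.70, adjusted p = 0.00947), SNAI1 (1.2, adjusted p = 0.0288) and KLF5 (0.70, adjusted p = 0.0331). TWIST1 and SNAI1 encode repressors of epithelial genes, and KLF5 a factor of epithelial growth. TP63 had 71.1, 65.2 and 98.1 FPKM in KYSE180 controls against 100.6, 124 and 123 FPKM under overexpression without passing (adjusted p = 0.0818). KLF4 lost its call in 8 of 16 alternatives in KYSE150 and KLF5 in 7 of 16 in KYSE180. Without KYSE180 control 1 the count there was 1, and it was 0 without overexpression replicate 1 or 3 and without a filter on low reads. In the same order, the calls over all genes fell from 1447 to 75, 1, 8 and 3, so few genes of any kind passed.

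Within an intron of PKP2 lies another annotated gene. AC087588.2 (ENSG00000274976) is annotated as sense intronic at 32820142 to 32820567 on chromosome 12, on the strand of PKP2 and with no exon base shared. It had 3.29, 1.69 and 1.88 FPKM in KYSE150 controls against 17.1, 9.09 and 18.2 FPKM under shCDCA7. The difference was 2.24 (SE 0.298, adjusted p = 0.00656), on between 14 and 30 reads in the controls and between 53 and 136 reads with shCDCA7. PKP2 itself did not pass there. In KYSE180, where PKP2 is low, AC087588.2 had at most 10 reads and was not tested. Its reads cannot be told apart from those of unspliced PKP2 RNA, as it lies on the strand of PKP2.

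Over the 12 libraries, centred within each line, the desmosome genes fell into patterns that are given here as descriptions, since points share libraries and a group difference moves all of them. DSC3 and PKP2 had a Pearson r of 0.957, DSP and DSG2 0.931, and DSP and DSC3 0.899, genes that were all high in shCDCA7 replicate 2. JUP was closest to PERP (0.806) and to DSG3 (0.778) and had 0.353 with DSP. PKP3 was negative with each of the others, from -0.271 with DSC2 to -0.842 with DSG3. Among all tested genes the pattern most like DSG3, the largest rise in KYSE150, was that of CEP85L (0.979), SIX4 (0.978) and EEA1 (0.976). The pattern most like PKP3, the fall there, was that of DUS3L (0.982), E2F1 (0.979) and KHSRP (0.977).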

How the data were processed

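RNA was measured in 12 libraries of 4 groups, assigned from the sample labels. The deposited table holds FPKM without naming the unit; multiplied by the gene lengths beside them, they are whole reads for 100% of values (tolerance 0.01 reads), scaled by an effective library size. Per the submitters' processing notes, HISAT2 2.0.5 and DESeq2 1.20.0 were used, with mm10, a mouse build; all 58735 gene identifiers and positions match GENCODE 29 for human GRCh38. The counting tool is not stated.

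Genes that reached 10 reads, rescaled to a library of median size, in no fewer than 3 libraries, and 15 reads in sum, were fitted with limma 3.58.1 (R 4.3.3) by limma-trend on log2(FPKM + 1), the 6 libraries of a line at a time, or all 12 for comparisons between lines. Benjamini-Hochberg adjustment covered all genes tested (two-sided, threshold 0.05); intervals are unadjusted. The added 1 makes log2 differences of low genes smaller than the ratio of their FPKM. Folds are ratios of mean FPKM. The fits were tested on simulated data. Family shares were compared by exact permutation. GC content is that of all transcripts of a gene in GENCODE. Promoter windows come from RefSeq.

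All 10 genes are named; from the related lists, called genes are named by size, up to 3 per direction and line, with uncalled junction genes and regulators where described. CTNND1, AFDN, KRT4, KRT14, KRT15 and TP63 fall outside that rule and were chosen after their values were seen. 1 gene of the transcription factor list is not reported here and is left out of its counts. Genes overlapping a member are taken by coordinates, and genes of like pattern by Pearson r for the largest called rise and fall. The members and lists were chosen with earlier results of these data known. Alternatives were other scalings, filters, an added 0.1, voom, a block for the replicate number and the omission of each library in turn. Removing the GC trend per library, and totals that leave out mitochondrial genes, were chosen after seeing the data. Read depth bears on counting error alone. No molecular identifiers are recorded, so copies of 1 molecule cannot be told apart from separate molecules.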

Additional observations from a re-analysis of the deposited data

Results flagged for a closer look

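The change of 5 desmosome genes from lower to higher CDCA7 differed between the lines by the test of that difference in the limma fit of all 12 libraries, as 28.4% of all 17088 tested genes did. KYSE180 minus KYSE150, the difference on the log2(FPKM + 1) scale was 1.19 for JUP (adjusted p = 0.000405), 0.97 for DSG3 (adjusted p = 0.00380), 0.94 for PERP (adjusted p = 0.00478), 0.56 for PKP1 (adjusted p = 0.0104) and -1.43 for PKP3 (adjusted p = 0.00497). For JUP, every overexpressing KYSE180 library, at 221 FPKM or more, was above its controls, and every shCDCA7 library of KYSE150, at 126 FPKM or more, was above its own, although CDCA7 had moved in opposite directions. Such higher groups were seen for 17.7% of all tested genes in KYSE180 and for 25.3% in KYSE150. The share with both was not computed. JUP, DSG3, PERP and PKP3 passed in all 21 alternatives, and PKP1 in 18 of 21. In KYSE180 alone none of the 5 passed, and in KYSE150 alone PKP1 did not either (adjusted p = 0.264 by limma). This difference equals the sum of the manipulated minus control differences of the lines, so a change in KYSE150 alone can be enough to pass. For DSG3 these differences were 0.19 in KYSE180 (adjusted p = 0.436 by limma) and 0.79 in KYSE150.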

How the results depend on the processing

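In KYSE180 the number of desmosome genes called, 0, rose to 3 in 1 fit of all 12 libraries, where 16.9% of all genes passed. It ran from 0 to 1 when single libraries were left out, while the calls over all genes ran from 1 to 2317. In KYSE150 the number, 4, was 2 under library totals, 2 without a filter on low reads and 2 with a replicate block, where DSG3 and JUP passed. In the same order, the calls over all genes were 3791, 1554 and 1001. The number ran from 1 to 6 when single libraries were left out, while the calls over all genes ran from 410 to 7948. Same-numbered libraries did not vary together (correlations of deviations between -0.076 and 0.066), so the numbers do not pair them; the block took the calls over all genes from 1447 to 603 in KYSE180 and from 2854 to 1001 in KYSE150. Library totals changed the split of higher and lower calls from 741 and 706 to 502 and 1229 in KYSE180, and from 1440 and 1414 to 776 and 3015 in KYSE150. Signs turned only for genes not called. For shCDCA7 these were DSG2 (-0.0173 under library totals, and from -0.0523 to 0.42 when libraries were left out), DSC2 (-0.0216 under library totals and -0.0867 with the GC trend removed) and PKP1 (-0.0962 under library totals and -0.0476 with totals without mitochondrial genes). For overexpression DSC2 ran from -0.18 to 0.0713 when libraries were left out. The difference of the manipulations for PERP was 0.0507 with TMM, 0.13 under library totals, 0.0486 with voom, 0.19 with the GC trend removed, 0.13 with totals without mitochondrial genes, and between -0.0831 and 0.12 when libraries were left out. The causes were not tested. PERP in KYSE150 lost its call in 9 of 16 alternatives, PKP3 in 5, DSG3 in 2 and JUP in 1. Differences between the native lines kept their calls in all 21 alternatives for DSG2, DSG3, DSC3, PKP1, PKP2, JUP and PERP. Where an arm was left with fewer libraries, its spread was taken from the pooled fit.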
